A study of Homo sapiens with 6 samples.

Results

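The loci of 7 genes of the contractile and adhesive cytoskeleton were examined for occupancy by YAP and TAZ, namely MYH9, ACTN1, ACTN4, VCL, ZYX, TAGLN and TPM1. The members were every deposited peak that overlapped one of these 7 gene spans or the 20 kb on either side of it. They numbered 157 and 145 of 392120 and 353336 peaks in YAP replicates 1 and 2, and 148 and 143 of 333505 and 310657 peaks in TAZ replicates 1 and 2. Spans were given in whole kb of the human build hg19, so a gene's 5′ end is placed to the nearest kb only. The rule used gene names and positions and no peak value, but the genes were chosen with earlier results of these data known.

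The peaks come from chromatin immunoprecipitation followed by sequencing (ChIP-seq) in H1299 cells, an established line of human non-small cell lung cancer that was starved of serum for 18 h. Anti-YAP was used for 2 libraries, anti-TAZ for 2, and 2 input libraries without antibody entered only as the background of the deposited lists. All libraries came from the same serum-starved line, with no knockout, no second line and no dose, so the design sets YAP occupancy against TAZ occupancy. Nothing in the labels says that replicates were separate cultures, so every spread below lies between libraries and may be technical.

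YAP and TAZ are coactivators without a DNA-binding domain that sit on chromatin through partners, above all the TEAD factors. Their entry into the nucleus rises when cells spread and pull on their surroundings, and actin filaments and focal adhesions carry that pull. Genes of this machinery are often named among targets of YAP and TAZ, and many of them are also controlled by serum response factor (SRF) and its actin-sensing coactivators. MYH9 encodes the heavy chain of non-muscle myosin IIA, the motor that tenses stress fibres. ACTN1 and ACTN4 encode alpha-actinins, which cross-link actin filaments. VCL encodes vinculin, which couples integrin adhesions to actin, and ZYX encodes zyxin, a LIM-domain protein of adhesions and stress fibres. TAGLN encodes transgelin (SM22), an actin-binding protein abundant in smooth muscle, and TPM1 encodes a tropomyosin, which lies along actin filaments.

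The promoters of these genes were searched for letters that the partner factors recognise. RefSeq promoters (build GRCh38.p14) were at hand for 6 of the 7 genes, at 10 start sites, and the 250 bases before each start were read. The TEAD motif was written as GGAATG or its complement CATTCC, the AP-1 motif as TGANTCA, and the SRF motif as the CArG box; both strands were searched. A TEAD motif was found at 3 of the 10 starts, in MYH9, VCL and ACTN1, against 11.9% of all 35116 promoters. An AP-1 motif was found at 1 start, in ACTN4, against 6.57% of all promoters, and a CArG box at 1 start, in ACTN1, against 1.16%. ZYX, the only TPM1 start in the set and the outermost start of ACTN1 held none of the 3 motifs. Whether that TPM1 start is the 5′ end used below for the peaks was not established, because the builds differ. The 4 sequences with a match are printed 5′ to 3′ along the gene, with the matches in capitals, because they show which of the loci carry these letters next to their start.
MYH9, chr22:36387968-36388217, minus strand: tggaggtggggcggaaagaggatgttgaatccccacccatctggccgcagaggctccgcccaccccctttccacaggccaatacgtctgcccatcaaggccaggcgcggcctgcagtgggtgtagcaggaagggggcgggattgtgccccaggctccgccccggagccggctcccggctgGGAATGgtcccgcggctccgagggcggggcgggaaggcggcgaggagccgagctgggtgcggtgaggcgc
VCL, chr10:73997866-73998115, plus strand: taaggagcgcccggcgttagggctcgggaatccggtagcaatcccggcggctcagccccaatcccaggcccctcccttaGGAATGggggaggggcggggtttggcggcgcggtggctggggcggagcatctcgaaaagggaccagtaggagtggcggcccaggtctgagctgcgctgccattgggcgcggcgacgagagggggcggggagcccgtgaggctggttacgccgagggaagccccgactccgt
ACTN1, an inner start, chr14:68977567-68977816, minus strand: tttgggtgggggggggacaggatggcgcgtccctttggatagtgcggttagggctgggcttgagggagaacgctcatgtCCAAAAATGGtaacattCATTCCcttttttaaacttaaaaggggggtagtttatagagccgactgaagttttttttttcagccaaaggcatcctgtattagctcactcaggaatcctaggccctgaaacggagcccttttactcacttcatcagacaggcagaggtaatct
ACTN4, outermost start, chr19:38647399-38647648, plus strand: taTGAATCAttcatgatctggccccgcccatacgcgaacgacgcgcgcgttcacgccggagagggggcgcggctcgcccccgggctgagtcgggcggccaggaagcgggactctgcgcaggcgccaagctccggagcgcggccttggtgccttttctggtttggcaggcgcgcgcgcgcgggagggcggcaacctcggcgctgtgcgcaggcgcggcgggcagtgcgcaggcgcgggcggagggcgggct
The TEAD match of MYH9 began 70 bases before the start and that of VCL 171 bases before it. In the ACTN1 sequence the first capitals are the CArG box and the next are the TEAD motif. These promoters were rich in G and C, with 71.6% in MYH9, 70.4% in VCL and 74.4% in ACTN4, against a median of 58% over all promoters; the inner ACTN1 start had 48%. Among 37 other genes of the actin and adhesion machinery listed for comparison (such as ACTB, MYL9, FLNA, TLN1 and PXN), 33 were in the promoter table with 75 starts. A TEAD motif was found at 15 of these starts, an AP-1 motif at 7 and a CArG box at 10. A match is a run of letters and not a measured binding site, and these coordinates belong to another build than the peaks. Peaks at the other genes were not analysed here.

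All 7 windows held peaks of both antibodies, but the extent of cover differed widely from gene to gene. ACTN4 was the most covered gene and TPM1 the least in each of the 4 libraries. Peaks covered 56.0% and 61.2% of the ACTN4 window in the YAP libraries, against 67.1% and 82.9% in the TAZ libraries. At VCL they covered 48.6% and 42.1% in the YAP libraries, against 39.5% and 39.3% in the TAZ libraries. At TPM1 the cover was 8.93% and 6.16% for YAP, against 8.41% and 11.5% for TAZ. The values of TPM1 did not overlap those of any other gene, and neither did those of ACTN4.

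Between these extremes the order was less settled. ACTN1 had 28.3% and 25.8% of its window covered in the YAP libraries, against 28.9% and 42.8% in the TAZ libraries. TAGLN had 27.9% and 24.8% for YAP, against 24.7% and 41.8% for TAZ. ACTN1 and TAGLN did not differ beyond their spread, and in TAZ replicate 2 both were covered more than VCL. MYH9 had 21.8% and 17.6% for YAP, against 13.5% and 19.97% for TAZ. ZYX had 20.05% and 17.2% for YAP, against 21.3% and 16.3% for TAZ, so that MYH9 and ZYX could not be put in order either.

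**Figure D1:**
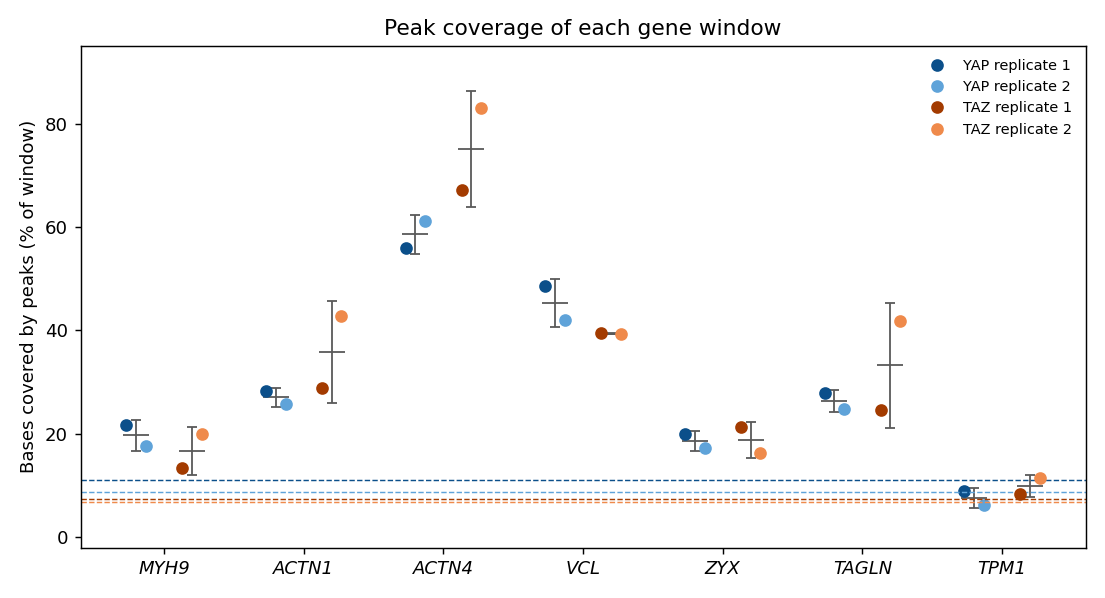
Share of each gene window (span plus 20 kb on either side) covered by deposited peaks, in percent, for each library; grey bars give the mean and SD of the 2 libraries of an antibody, and dashed lines give each library's median over 100 kb windows of the genome. ACTN4 lies between 56.0% and 82.9%, and TPM1, between 6.16% and 11.5%, is the only gene that reaches the dashed lines.

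The cover was set beside 28388 windows of 100 kb, tiled over chromosomes 1 to 22 and X, that held a peak of any library. The median window was covered to 10.99% and 8.73% in the YAP libraries, against 7.32% and 6.88% in the TAZ libraries. Cover above the median in all 4 libraries was found in 6 of the 7 gene windows, and in 41.8% of all windows. The exception, TPM1, lay above the median in both TAZ libraries and below it in both YAP libraries. The TAGLN window, 1 of the 6, owed its cover mostly to the flanks. The TAGLN span alone was covered to 0% in both YAP libraries, against 0% and 11.9% in the TAZ libraries. The gene windows ran from 46 to 163 kb, so the sizes differ from those of the tiled windows. ACTN4 lay above 94.3% and 96.7% of windows in the YAP libraries, against 98.4% and 99.1% in the TAZ libraries. VCL lay above 88.5 to 91.3% of windows, and TPM1 above 40.6% and 36.3% for YAP, against 54.5% and 63.3% for TAZ.

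The standing of a gene changed when it was set against its own chromosome and neighbourhood. ACTN4 lies on chromosome 19, whose median window was covered to 56.1% and 52.7% in the YAP libraries, against 49.7% and 53.0% in the TAZ libraries. The tiled windows within 1 Mb of ACTN4 had medians of 72.3% and 72.6% for YAP, against 72.9% and 78.8% for TAZ, so ACTN4 was covered less than its neighbourhood in 3 of the 4 libraries. MYH9, on chromosome 22, stayed below that chromosome's median in all 4 libraries (25.3% and 21.6% for YAP, 20.2% and 24.7% for TAZ). ZYX was the reverse case. Its neighbourhood on chromosome 7 had medians of 4.99% and 2.82% for YAP, against 1.59% and 2.46% for TAZ. No neighbouring window reached the cover of the ZYX window, flanks included, in any library. The most covered neighbour had 15.5% and 12.2% for YAP, against 8.66% and 13.9% for TAZ. The ZYX span alone was covered less than that neighbour in both YAP libraries, at 3.52% and 11.1%. In the TAZ libraries the span was covered more than that neighbour, at 26.4% and 20.3%. The TAGLN and ACTN1 windows also exceeded the median of their neighbourhoods in all 4 libraries, as did the VCL window by a smaller margin. The TAGLN span alone, at 0% to 11.9%, lay below the median of its neighbourhood in all 4 libraries.

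To compare the antibodies, the 7 windows were first pooled. YAP peaks covered 33.6% and 31.1% of their 748 kb, against 31.8% and 39.3% for TAZ peaks. The means were 32.4 ± 1.8% for YAP and 35.6 ± 5.4% for TAZ (SD, n = 2 each), a YAP minus TAZ difference of -3.21 percentage points. The groups overlapped, with p = 0.667 in an exact two-sided permutation test, which cannot go below 0.33 with 2 libraries against 2. Without TAZ replicate 2 the difference was 0.578, and among peaks with an enrichment over input (the authors' fold) of at least 4 it was 0.696, so its sign depended on the library and on the fold limit. The number of peaks was 157 and 145 for YAP, against 148 and 143 for TAZ, and overlapped too (exact two-sided permutation p = 0.667). This count depended on the threshold: with q at most 0.01 it was 137 and 131 for YAP, against 117 and 105 for TAZ, and the groups did not overlap, whereas with lists of equal length it was 124 and 132 for YAP, against 138 and 143 for TAZ. By gene, peaks were more numerous in both YAP libraries than in either TAZ library at MYH9 and ACTN4, an order found in 37.4% of 100 kb windows. MYH9 had 31 and 22 peaks for YAP, against 18 and 21 for TAZ, and ACTN4 had 27 and 25 for YAP, against 21 and 17 for TAZ. The opposite order held at the 3 shortest windows, ZYX, TAGLN and TPM1, and in 5.23% of 100 kb windows. TPM1 had 10 and 8 peaks for YAP, against 13 and 12 for TAZ. At ACTN4, therefore, YAP had more peaks and TAZ the larger cover.

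Gene by gene, the antibodies separated in 3 of the 7 windows. Both TAZ libraries lay above both YAP libraries at ACTN1 and ACTN4, and both YAP libraries lay above both TAZ libraries at VCL. Over all 100 kb windows, 4.79% had both TAZ libraries above and 52.9% had both YAP libraries above. Among the 5893 windows with a mean cover of at least 25%, a limit chosen after seeing the data, the shares were 10.5% and 50.2%. The order at VCL was thus the common one in these lists, whereas that at the alpha-actinin genes was found in few windows. The order at ACTN4 was also that of its neighbourhood. The median windows within 1 Mb of it were covered to 72.3% and 72.6% for YAP, against 72.9% and 78.8% for TAZ. Near ACTN1 the medians of the antibodies overlapped. The YAP minus TAZ difference was -16.4 percentage points at ACTN4 (YAP 58.6 ± 3.7%, TAZ 75.0 ± 11.2%), -8.75 at ACTN1 (YAP 27.1 ± 1.8%, TAZ 35.8 ± 9.8%) and 5.97 at VCL (YAP 45.3 ± 4.6%, TAZ 39.4 ± 0.16%; SD, n = 2 each). Each gave an exact two-sided permutation p of 0.33, the smallest possible, before any adjustment over the 7 genes. At ACTN1 much of it rested on 1 library, since without TAZ replicate 2 the difference was -1.81. At ACTN4 it was -8.48 without that library, and at VCL it was 2.71 without YAP replicate 1.

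The lists differ in total cover, from 514 Mb in YAP replicate 1 to 405 Mb in TAZ replicate 1, so each window was also divided by its library's mean over all windows. On this scale the 7 windows together had 1.85 and 1.97 times the mean cover for YAP, against 2.23 and 2.63 times for TAZ. Both TAZ libraries then lay above both YAP libraries at 4 genes (ACTN1, ACTN4, TAGLN and TPM1), against 13.7% of all windows. The reverse held at 0 genes, against 34.5% of all windows. On this scale the shares among densely covered windows were not worked out. The counts therefore do not show that these genes differ from other well covered windows. At VCL the YAP minus TAZ difference on this scale was -0.0224.

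How often the libraries had peaks in the same regions differed from gene to gene. In VCL, whose 33 merged regions were spread over the whole gene and both flanks, 30 held a peak of all 4 libraries and the other 3 held peaks of 3 libraries. A merged region is a run of peaks from any of the 4 libraries that overlap by at least 1 bp. The fold given below for a region is that of its best-ranked peak in each library. In a wide region these peaks can lie at different places. In ACTN4, 10 of 11 regions held peaks of all 4 libraries. The share was 21 of 36 in ACTN1 and 7 of 11 in TAGLN, and it was low in ZYX (3 of 12), MYH9 (8 of 35) and TPM1 (2 of 18). A region held by all 4 libraries need not be covered by all 4 throughout. Peaks of all 4 libraries shared 45.2% of the ACTN4 window, whereas 90.3% of it lay under a peak of any library. At VCL these values were 29.4% and 55.4%. The part of covered bases held by all 4 libraries was highest at VCL, at 53.1%, with ACTN4 next and then ACTN1, at 27.7%. Over the 7 genes, 81 of 156 regions held peaks of all 4 libraries, or 51.9%, against 39.2% of all 452943 regions of the genome. The exact Clopper-Pearson 95% interval of the former was 43.8 to 60.0%, counting error only. It takes regions as independent and leaves out the spread between genes, so it does not settle whether the shares differ. The regions here were wide, with a median of 1485 bp against 788 bp over the genome; the part of width in these shares was not tested.

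**Figure D2:**
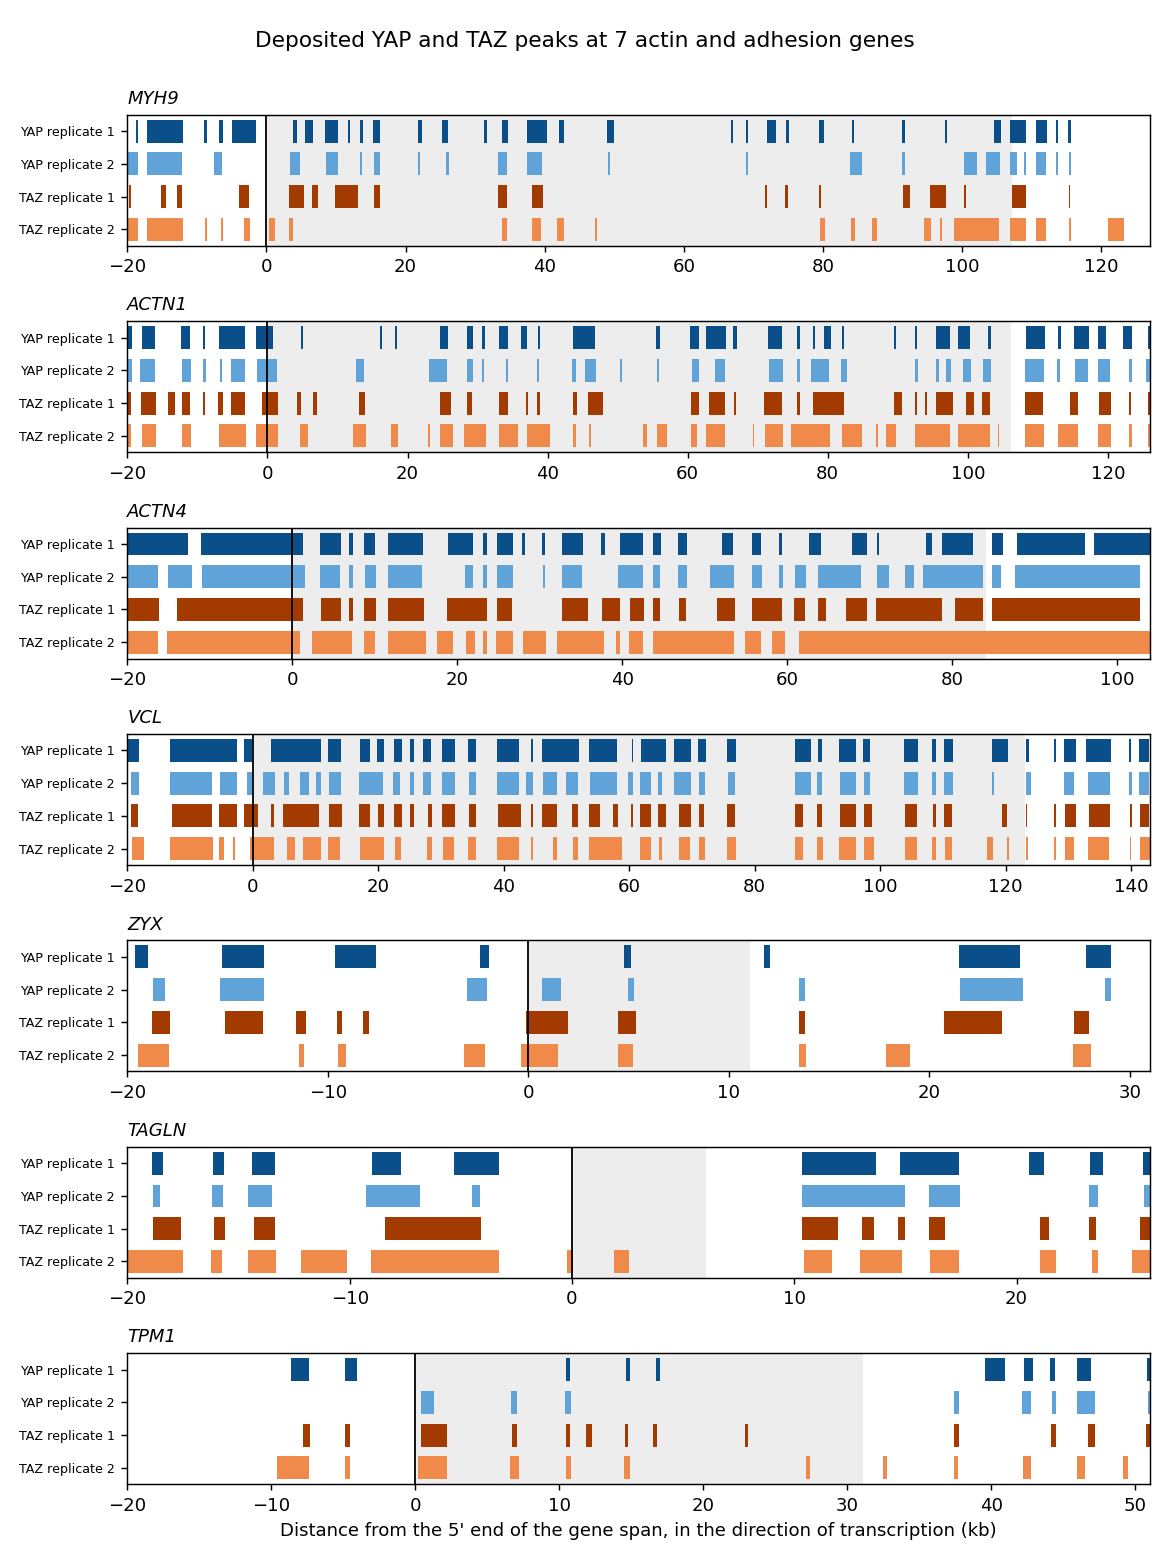
Deposited peaks of the 4 libraries along the 7 genes, by distance in kb from the 5′ end (vertical line) in the direction of transcription; the gene span is shaded and 20 kb are drawn on either side. Most merged regions at VCL and ACTN4 hold peaks of all 4 libraries, against 2 of 18 at TPM1 and 3 of 12 at ZYX. The TAGLN span holds peaks in TAZ replicate 2 alone.

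Regions held by both libraries of 1 antibody and by neither of the other were few. MYH9 held all 6 regions with peaks in both YAP libraries and in neither TAZ library. The one with the lowest sum of ranks was a stretch of 435 bp in the gene body, at chr22:36770188-36770622, 13.4 to 13.8 kb from the 5′ end. Its fold was 2.99 and 3.86 in the YAP libraries, which placed it at 66.8% and 18.0% of their lists counted from the highest −log10 q. ZYX held the single region with peaks in both TAZ libraries and neither YAP library, 509 bp at chr7:143066411-143066919, 11.1 to 11.6 kb upstream, with a fold of 2.82 and 3.12. Over the 7 genes these classes made up 3.85% and 0.641% of the regions, against 6.87% and 1.44% over the genome. Neither was thus more frequent in the 7 windows together. The YAP class alone was 6 of 35 regions at MYH9 and the TAZ class 1 of 12 at ZYX, each gene singled out by its own count. By bases, the YAP libraries of MYH9 shared 0.431 of the bases that either covered (the Jaccard index) and the TAZ libraries 0.194.

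**Figure D3:**
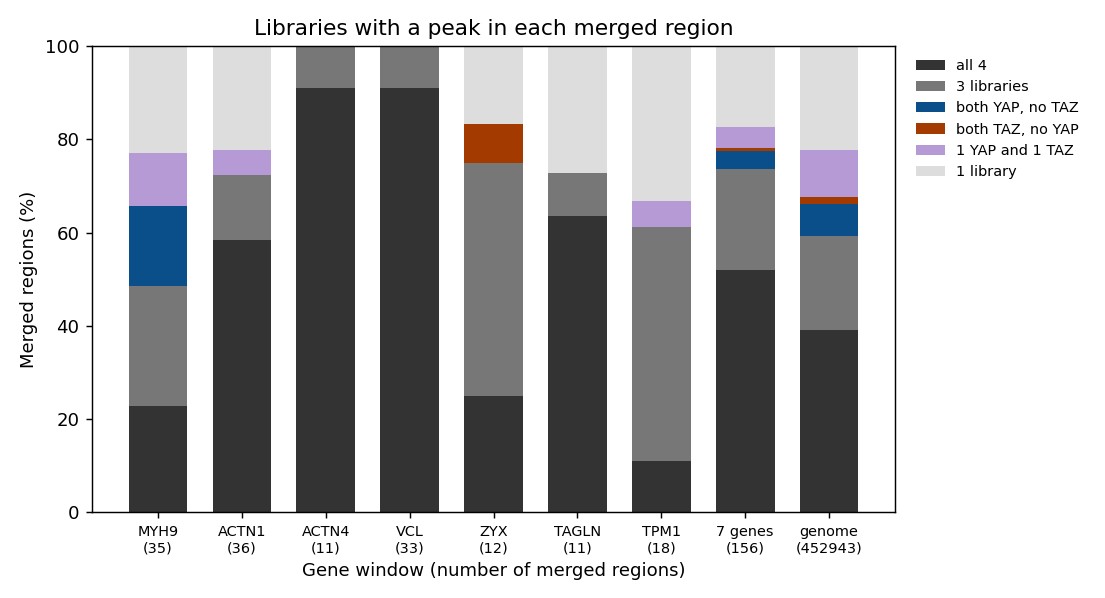
Merged regions of each gene window, of the 7 windows together and of the genome, as percent by the libraries that hold a peak in them; numbers under the bars give the regions. All-library regions make up most of ACTN4 and VCL, and regions of both YAP libraries without TAZ occur in MYH9 alone of the 7 genes.

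At the base level, pairs across antibodies and pairs of replicates had indices in overlapping ranges. Over the 7 windows the Jaccard index was 0.636 between the YAP libraries and 0.556 between the TAZ libraries, and it ran from 0.502 to 0.597 where a YAP library was set against a TAZ library. Over the genome the same values were 0.612, 0.494 and 0.495 to 0.540. VCL had the highest index between replicates, 0.752 for YAP and 0.704 for TAZ, with 0.638 to 0.753 between antibodies; ACTN4 followed with 0.729 for YAP, 0.698 for TAZ and 0.606 to 0.731 between antibodies. At ZYX, pairs between antibodies reached from 0.110 to 0.449, the widest range of the 7 genes. Which input each list was called against is unsettled, since the peak names give one common input and the list names give others; any share of these overlaps that comes from common input reads was not tested.

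The 5′ ends were covered unevenly. Within 2 kb of the 5′ end each of the 4 libraries had a peak at ACTN1, ACTN4, VCL and ZYX. These are 4 of the 7 genes, against 50.4% of the 4 kb windows of the genome that hold any peak. With peaks of a q-value of at most 0.01 it was 2 genes, and within 5 kb of the 5′ end it was 7. At ZYX no single region there held all 4 libraries, and YAP replicate 1 covered only 1.225% of the 4 kb. ACTN4 was covered to 83.4% and 87.6% within 2 kb for YAP, against 81.7% and 74.6% for TAZ, by the end of a long covered stretch that lay upstream. ACTN1 was covered to 60.3% and 73.5% for YAP, against 56.1% and 78.6% for TAZ, by a region of 3164 bp across the 5′ end, at chr14:69444477-69447640. Its fold was 2.23 and 2.71 in the YAP libraries, against 3.53 and 3.77 in the TAZ libraries; folds come from separate lists and were not tested between them.

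VCL, ZYX and TPM1 were covered more by TAZ than by YAP at their 5′ ends. Here and below, distances under 1 kb are finer than the placing of the 5′ ends. They do not settle whether a peak crosses the true start. VCL had 30.15% and 29.1% for YAP, against 53.9% and 60.9% for TAZ. ZYX had 1.23% and 23.25% for YAP, against 53.5% and 46.2% for TAZ, with TAZ peaks across the 5′ end itself and the nearest YAP peak 1.95 kb and 0.705 kb away. A further region of ZYX just upstream, at chr7:143074793-143076049, had a fold of 3.99 and 2.84 for YAP, against 3.15 in TAZ replicate 2. Over the whole span of ZYX the cover was 3.52% and 11.1% for YAP, against 26.4% and 20.3% for TAZ. TPM1 had 0% and 23.1% for YAP, against 40.3% and 44.8% for TAZ, in a region of 2007 bp that began 0.207 kb inside the gene, at chr15:63334208-63336214. The TPM1 region had a fold of 2.48 in YAP replicate 2, the one YAP library with a peak there, against 3.19 and 3.29 for TAZ. In these 3 genes the groups did not overlap; both TAZ libraries lie above both YAP libraries in 7.92% of the 4 kb windows that hold any peak. The reverse order was found at ACTN4 alone, against 26.9% of such windows.

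MYH9 and TAGLN had little at their 5′ ends. MYH9 was covered to 13.03% and 0% for YAP, against 0% and 21.5% for TAZ, and its promoter, printed above, holds a TEAD motif. Of the 2 regions of MYH9 within reach of the 5′ end, the one held by more libraries lay 1.48 to 5.00 kb upstream, at chr22:36785480-36788998, with peaks of YAP replicate 1 and both TAZ libraries. The other, with the lower sum of ranks, was a single peak of TAZ replicate 2 that began 0.311 kb inside the gene, at chr22:36782831-36783689, with a fold of 2.88. TAGLN had no YAP peak within 2 kb; the nearest was 3.28 and 4.13 kb away for YAP, against 4.10 kb for TAZ replicate 1. A single peak of TAZ replicate 2 covered its 5′ end, 282 bp wide with a fold of 3.13, and no other library had a peak anywhere in the TAGLN span. Averaged over the 7 genes, the cover within 2 kb was 26.9% and 33.8% for YAP, against 40.8% and 48.0% for TAZ, with a YAP minus TAZ difference of -14.0 percentage points (YAP 30.3 ± 4.9%, TAZ 44.4 ± 5.1%; SD, n = 2 each; exact two-sided permutation p = 0.33, the smallest possible). This comparison was chosen after seeing the data, and within 5 kb the difference was smaller, at -5.40. No peak with a fold of at least 4 lay within 2 kb of any of the 7 5′ ends in any library.

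**Figure D4:**
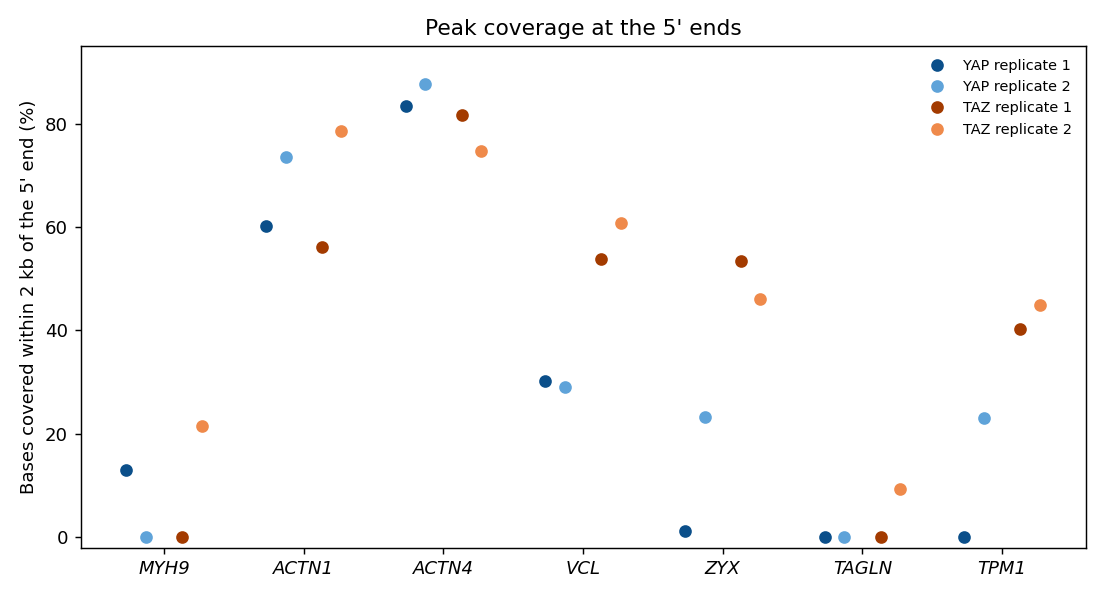
Share of the 4 kb around each 5′ end covered by deposited peaks, in percent, with each point standing for 1 library. TAZ points lie above YAP points at VCL, ZYX and TPM1, below them at ACTN4, and mix with them at the other genes.

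Strength was judged within each list. The median fold of the peaks at the 7 genes was 3.22 and 3.24 in the YAP libraries, against 3.17 and 3.08 in the TAZ libraries. In the whole lists it was 3.14 in each YAP library, against 3.16 and 3.03 in TAZ replicates 1 and 2. The highest fold at any of the genes was 4.64 and 5.31 for YAP, against 5.36 and 4.54 for TAZ, while the lists reached 9.03 and 10.44 for YAP, against 9.57 and 8.07 for TAZ. Strong peaks, the 20000 of each library with the highest −log10 q, made up 12 of 157 and 16 of 145 peaks for YAP, or 7.64% and 11.03%. For TAZ they made up 14 of 148 and 8 of 143 peaks, or 9.46% and 5.59%. In the whole lists their share is 5.10% and 5.66% for YAP, against 5.997% and 6.44% for TAZ. The numbers overlapped between antibodies (exact two-sided permutation p = 0.667).

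Strong peaks were concentrated at ACTN4, which held 29 of the 50 counted over the 4 libraries. It had 8 and 9 for YAP, against 7 and 5 for TAZ. Without ACTN4 the share of strong peaks was 3.08% and 5.83% for YAP, against 5.51% and 2.38% for TAZ. Of the 12 peaks of 10 kb or more, 3 in each library, 11 lay at ACTN4 and the other lay at VCL, in YAP replicate 1. Such peaks made up 0.877% and 0.766% of the whole YAP lists, against 0.615% and 0.982% of the TAZ lists. Their share on chromosome 19, whose median window was covered to between 49.7% and 56.1%, was not worked out. The merged region across the 5′ end of ACTN4 ran for 103330 bp, at chr19:39036176-39139505, and ended 1.505 kb inside the gene, so most of it lay upstream of the window. Its best peak had a fold of 3.90 and 4.25 for YAP, against 4.25 and 3.59 for TAZ, where the 4.25 of TAZ replicate 1 belongs to a peak beyond the window. A second region of ACTN4 was narrow and strong in all 4 libraries, singled out after its values were seen. It spanned 2113 bp of the gene body at chr19:39162710-39164822, 24.7 to 26.8 kb from the 5′ end. Its fold was 3.98 and 3.59 in the YAP libraries, against 3.87 and 3.53 in the TAZ libraries, with −log10 q of 9.92 and 6.04 for YAP, against 5.96 and 5.13 for TAZ. At the other 6 genes no peak was strong in all 4 libraries, and 17 of their 21 strong peaks were strong in 1 library only. How often strong peaks of the whole lists are strong in 1 library or in all 4 was not worked out. These counts thus have no background to be set against.

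**Figure D5:**
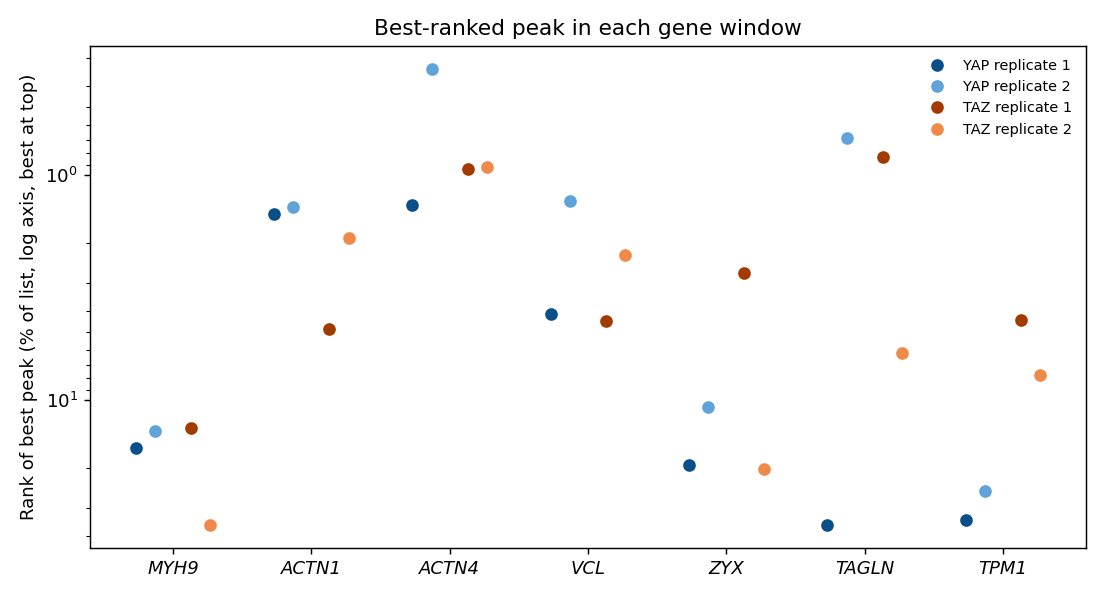
Place of the best-ranked peak of each gene window in its own list by −log10 q, as percent of the list on a log axis with the best at the top, for each library. ACTN4, ACTN1 and VCL lie within the top 5% in all libraries, whereas MYH9 lies between 13.3% and 35.8%. The best rank was not adjusted for the number of peaks in a window. That number was 33 to 36 at ACTN1, 35 to 40 at VCL, 17 to 27 at ACTN4 and 18 to 31 at MYH9.

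In ACTN1 the best-ranked peaks of YAP replicate 2 and TAZ replicate 2 overlapped, 43.8 kb from the 5′ end, and those of the other libraries lay elsewhere. The all-library region of ACTN1 with the lowest sum of ranks holds that place and spanned 4406 bp of the gene body at chr14:69398070-69402475, 43.5 to 47.9 kb from the 5′ end. Its fold was 3.54 and 4.75 for YAP, against 3.81 and 4.54 for TAZ, and it was strong in YAP replicate 2 and TAZ replicate 2. The widest region of ACTN1, 10159 bp of the gene body at chr14:69361140-69371298, had a fold of 4.19 and 4.57 for YAP, against 3.66 and 2.93 for TAZ. In VCL the all-library region with the lowest sum of ranks lay in the downstream flank, at chr10:75886281-75888302, with a fold of 4.28 and 3.75 for YAP, against 3.96 and 3.65 for TAZ. The widest region of VCL, 12300 bp from 75755584 to 75767883, ran from 1.42 kb upstream to 10.9 kb inside the gene. At the 5′ end as placed here it held TAZ peaks only, with the nearest YAP peaks 0.211 and 0.109 kb away. Its best-ranked peaks had a fold of 3.99 and 4.16 for YAP, against 3.65 and 3.17 for TAZ, and did not all lie at the same place.

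At TAGLN the strong peaks lay outside the gene. YAP replicate 2 had one 23.5 kb from the 5′ end, at chr11:117093257-117093659, with a fold of 5.31. TAZ replicate 1 had one 18.2 kb upstream, positions 117051171 to 117052428, with a fold of 5.36. TAZ replicate 2 had one 13.9 kb from the 5′ end, positions 117082975 to 117084840, with a fold of 4.16, within a region of 7129 bp that held peaks of all 4 libraries. That region, at chr11:117080333-117087461, was the widest of TAGLN and had a fold of 3.28 and 3.90 for YAP, against 3.61 and 4.16 for TAZ. The all-library region of TAGLN with the lowest sum of ranks lay upstream, at chr11:117047253-117052519, with a fold of 3.58 and 4.09 for YAP, against 6.33 and 3.44 for TAZ, where the value of 6.33 belongs to a peak beyond the window. YAP replicate 1 had no strong peak at TAGLN. ZYX had 1 strong peak, in TAZ replicate 1, 302 bp wide and 8.11 kb upstream, at chr7:143069743-143070044, with a fold of 4.91. TPM1 had 1, also in TAZ replicate 1, 402 bp wide and 12.04 kb from the 5′ end, at chr15:63345841-63346242, with a fold of 4.62; no other library had a peak on it. The TPM1 region with peaks of all 4 libraries and the lowest sum of ranks lay close by, positions 63344403 to 63344801, with a fold of 2.76 and 3.68 for YAP, against 4.18 and 4.02 for TAZ. In ZYX the corresponding region spanned 902 bp of the gene body, positions 143082455 to 143083356, with a fold of 3.09 and 3.16 for YAP, against 3.88 and 2.99 for TAZ. The widest regions of both genes lacked 1 library. That of ZYX, 3920 bp downstream of the gene at chr7:143098732-143102651, had a fold of 2.72 and 3.24 for YAP, against 2.96 in TAZ replicate 1. That of TPM1, 2334 bp upstream at chr15:63324357-63326690, had a fold of 2.83 in YAP replicate 1, against 2.90 and 2.49 for TAZ.

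MYH9 held 0 strong peaks in all 4 libraries. Its best peak ranked at 16.3% and 13.7% of the list for YAP, against 13.3% and 35.8% for TAZ. Among the MYH9 regions held by all 4 libraries, the one with the lowest sum of ranks crossed the 3′ end of the gene, at chr22:36674740-36677166, with a fold of 2.98 and 3.68 for YAP, against 3.90 and 2.70 for TAZ. The widest region of MYH9 lay just inside the 3′ end, 6744 bp from 36678378 to 36685121, with a fold of 2.12 and 2.82 for YAP, against 3.11 and 3.08 for TAZ. The upstream flank of MYH9 was covered more than its body in every library, with 49.2% and 38.4% for YAP, against 14.9% and 41.4% for TAZ upstream. In the body the cover was 16.4% and 14.1% for YAP, against 13.5% and 13.9% for TAZ.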

How the data were processed

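Peak lists of 4 ChIP-seq libraries of H1299 cells (YAP and TAZ, 2 libraries each) were used. The submitters' processing notes name MACS2, Bowtie2, cutadapt and SAMtools, and the build hg19; their versions are not given in the sources used here. Broad peaks were deposited per library, called against an input, which has no list of its own here. Each peak has a deposited fold (a ratio over input made by the authors), a deposited −log10 p and −log10 q, and a deposited score, which was left unused. Lists hold no read totals, so depth is unknown, and a deeper library gives longer lists. Fold and −log10 q served to describe and rank peaks within a list.

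Peaks on chromosomes 1 to 22 and X were kept and ranked by −log10 q. Cover was the percent of bases under peaks, and a peak needed 1 bp of overlap to count. Antibodies were compared over libraries with exact two-sided permutation tests (Python 3.11.15, pandas 2.3.3, scipy 1.17.1); overlap code was tested on simulated peaks. Gene strands follow RefSeq, except that of TAGLN, which is general knowledge. Regions named were, per gene, the all-library region and the 5′ region with the lowest sum of ranks, the best of those held by 1 antibody alone and the widest, plus strong peaks where 5 or fewer. Since a sum over fewer libraries is smaller, 5′ regions were first compared by their number of libraries, a departure from that rule that changed the region at MYH9 only, where both are given. Genes, lists and tests were chosen with earlier results of these data known. Alternatives are given in the closing section.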

Additional observations from a re-analysis of the deposited data

How the results depend on the processing

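All differences here are YAP minus TAZ, in percentage points of cover unless a count is named. No test could pass 0.05 with 2 libraries against 2, so the settings move values only. Leaving out 1 library at a time gave -6.99 to 0.578 for the cover of the 7 windows, the positive value without TAZ replicate 2, and -17.6 to -10.4 for the cover at the 5′ ends. It gave -0.5 (without YAP replicate 1) to 11.5 for the number of peaks and 0 to 6 for strong peaks. Among the 3 libraries left, 92 to 99 regions held all of them, 8 to 16 held every YAP and no TAZ library left, 7 to 18 the reverse, and 4 to 5 genes had a 5′ peak in each; these counts grow because fewer lists have to meet. By gene it gave -15.4 to 1.71 at TAGLN, -2.71 to 2.29 at ZYX, -0.270 to 6.22 at MYH9 and 2.71 to 9.22 at VCL.

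With peaks of a fold of at least 4, the difference was 0.696 over the 7 windows, -0.613 at MYH9, 1.27 at ACTN1, 1.08 at ACTN4 and 0 at the 5′ ends. YAP was then above TAZ at 2 genes, 0 genes had a 5′ peak in all 4 libraries, 0 regions held all 4 and 1 held both YAP libraries alone. With q at most 0.01, the number of peaks differed by 23, the cover by 2.27 at ZYX and by 6.50 at TAGLN, YAP was above TAZ at 3 genes, 2 genes had a 5′ peak in all 4 libraries, and 12 regions held YAP alone and 2 TAZ alone. With flanks of 50 kb, it was 3.21 at TAGLN and 0.0168 at TPM1, TAZ was above YAP at 1 gene, strong peaks differed by 0 and 3 regions held TAZ alone. Without flanks, TAZ was above YAP at 4 genes and YAP above TAZ at 2, 52 regions held all 4 libraries and 0 held TAZ alone. With lists of equal length, it was -4.32 at MYH9 and -20.9 at the 5′ ends, the number of peaks differed by -12.5, and 7 regions held TAZ alone. With 5 kb on each side of the 5′ end, the difference in cover there was -5.40 and 7 genes had a peak in all 4 libraries; with 1 kb it was -19.6. Relative to the mean window, it was -0.0224 at VCL, with TAZ above at 4 genes and YAP at 0. With a reciprocal overlap of 50%, single peaks and not merged regions were counted, so these counts cannot be set beside the others. Of the YAP replicate 1 peaks, 40 met a peak of every other library at this limit. Another 20 met YAP replicate 2 and no TAZ library. Of the TAZ replicate 1 peaks, 12 met TAZ replicate 2 and no YAP library. A peak that missed the limit could still overlap the other antibody by less. The cause of these changes was not tested.

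The labels do not say that equal replicate numbers pair the libraries. Deviations of same-numbered libraries correlated at 0.387 over 28388 windows, with 2 pairs only. With the replicate number as a block the differences were the same, -3.21 over the 7 windows, 5.5 peaks and 3 strong peaks, with exact p of 1, 0.5 and 1. The relative scale, all alternatives at single genes and for the number of genes with 1 antibody above, and those for the cover at the 5′ ends were chosen after seeing the data. Depth cannot be read from peak lists, so a window without a peak is not shown to lack binding.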
